A study of Mus musculus with 6 samples.

Results

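Kupffer cells are the resident macrophages of the liver. They lie in the sinusoids, the capillaries of the liver, where they take up microbes, dying cells and aged red blood cells from the blood. They depend on signals through the CSF1 receptor and on neighbouring endothelial cells, stellate cells and hepatocytes, and when they are lost, blood monocytes can enter the liver and replace them. The genes described here are 10 markers, chosen by symbol from the 45777 genes of the deposited table. Clec4f, Vsig4, Timd4, Cd5l and Marco are enriched in Kupffer cells or in tissue macrophages of a few organs, and Adgre1, Csf1r, Cd68, Mpeg1 and C1qa are expressed by macrophages at large. All 10 were found in the table and all 10 passed the filter on low counts, with 230 to 6832 reads per gene and library.

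The study sequenced polyadenylated RNA of whole liver from C57BL/6 mice aged 10 weeks, 3 libraries per genotype, to see what hepatocyte Pak4 does for liver gene expression. Both groups are labelled Pak4 flox/flox, so that both Pak4 alleles carry target sites for Cre recombinase. The Pak4_KO group adds Alb-Cre, in which the albumin promoter drives the recombinase in hepatocytes, and the WT group is labelled without it. An effect of Cre itself therefore cannot be told apart from that of Pak4 loss. Macrophages are not the cells that Alb-Cre targets. In whole liver, fewer macrophages and less of a macrophage RNA per cell cannot be told apart. The labels give neither the sex nor the number of animals behind a library. A p-value therefore sets the difference of the groups only against a spread between libraries that may be technical.

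Library totals ran from 39603272 to 52521400 reads. Pak4, the targeted gene, stood at 5.93, 7.15 and 6.44 CPM (read counts scaled to library size by the trimmed mean of M values, TMM) in WT replicates 1, 2 and 3 and at 1.37, 2.24 and 1.90 CPM in Pak4_KO (log2 fold change -1.82, SE 0.24, edgeR adjusted p = 0.0169). The groups did not overlap for Pak4, but its adjusted p was 0.0562 without WT replicate 1, 0.0608 without WT replicate 2 and 0.0936 without Pak4_KO replicate 3. No marker lies on chromosome 7, which holds Pak4.

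None of the 10 markers passed the test between the genotypes. By edgeR's quasi-likelihood test with Benjamini-Hochberg adjustment, 0 of 10 had an adjusted p under 0.05, where 76 of 16197 tested genes (0.469%) did. At an unadjusted p under 0.05, 3 markers were lower in Pak4_KO (Mpeg1, Cd68 and Cd5l) and 0 were higher, beside 3.69% of all tested genes lower, 4.51% higher and 8.21% in either direction. All 10 log2 fold changes were negative, with a median of -0.27, against 49.3% of all tested genes negative and a median of 0.0045. On the deposited TPM, 8 of 10 log2 fold changes were negative, with Timd4 and C1qa just above 0. With the log2 of TPM plus 1, the markers' median was -0.18, against 0.056 for all tested genes. The markers were measured in the same libraries and are in part expressed by the same cell types, so they cannot be counted as independent of each other. For Mpeg1 and Cd68 each Pak4_KO library lay below each WT library, 2 of 10 markers, where 6.06% of all tested genes were lower in Pak4_KO without overlap. No marker was higher without overlap, beside 7.35% of all tested genes. DESeq2's Wald test called 1 marker, Mpeg1 (adjusted p = 0.00341), and 0.982% of all tested genes as lower.

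**Figure D1:**
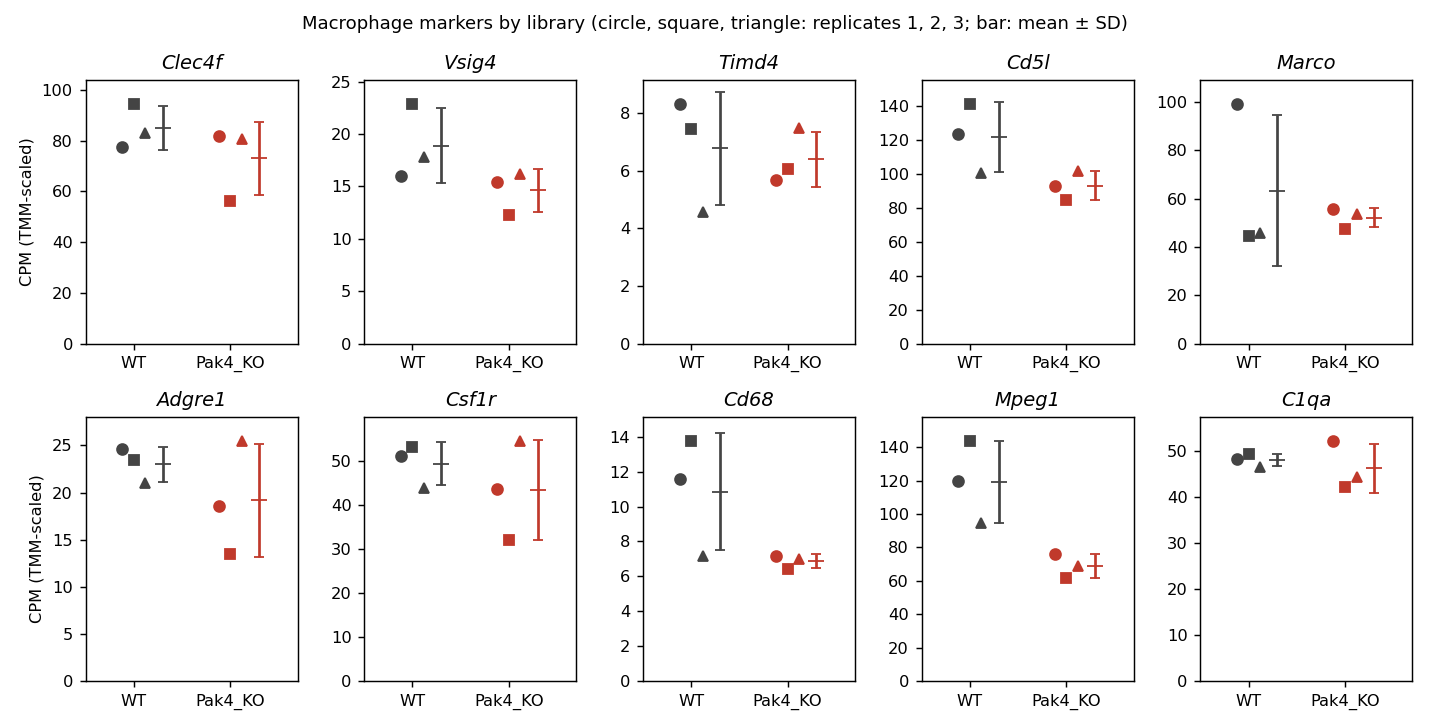
TMM-scaled CPM of the 10 markers in each of the 6 libraries, WT in grey and Pak4_KO in red, with the mean and SD of each group at the right of its points (n = 3). Mpeg1 is apart between the groups, Cd68 is apart by 7.18 against 7.15 CPM, and the other 8 overlap.

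Per unit of length, Cd5l was the most abundant marker and Timd4 the least abundant in both groups. On the deposited TPM (transcript abundance scaled for gene length and library size), WT liver held Cd5l at 98.3 ± 16.6, C1qa at 73.2 ± 3.39, Clec4f at 58.1 ± 4.53 and Marco at 54.6 ± 29.1 (SD, n = 3 each). Mpeg1 followed at 45.5 ± 9.24 TPM, Vsig4 at 21.6 ± 3.56, Csf1r at 20.9 ± 2.31, Cd68 at 15.0 ± 4.59, Adgre1 at 11.8 ± 1.31 and Timd4 at 5.36 ± 1.75. In this order the WT libraries of Cd5l were apart from those of C1qa, C1qa from Clec4f, Mpeg1 from Vsig4 and Adgre1 from Timd4, and the other neighbours overlapped. In Pak4_KO the order was the same down to Mpeg1, at 27.8 ± 3.62 TPM. Csf1r (19.6 ± 6.16 TPM) then stood before Vsig4 (17.8 ± 3.36) and Adgre1 (10.5 ± 3.92) before Cd68 (10.0 ± 0.862), each pair with overlapping libraries. The Pak4_KO libraries were apart between C1qa and Clec4f, Marco and Mpeg1, and Cd68 and Timd4, and overlapped between the other neighbours.

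Clec4f encodes a C-type lectin that in the mouse is made by Kupffer cells and hardly any other cell. Clec4f (NCBI gene 51811, chromosome 6, 83644542 to 83656116, GRCm38) stood at 77.4, 94.5 and 83.0 CPM in WT and at 81.9, 56.3 and 80.6 CPM in Pak4_KO. Pak4_KO replicate 2 lay below the rest, and the other 5 libraries mixed. The log2 fold change was -0.22 (SE 0.17, adjusted p = 0.826), and its 95% interval of -0.61 to 0.17 covers a level from 34.4% lower to 12.4% higher.

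Vsig4 encodes the complement receptor CRIg, with which Kupffer cells bind particles coated with complement C3 fragments. Vsig4 (NCBI gene 278180, chromosome X, 96247201 to 96293438) stood at 16.0, 22.9 and 17.8 CPM in WT and at 15.4, 12.3 and 16.2 CPM in Pak4_KO. The highest library was WT replicate 2 and the lowest Pak4_KO replicate 2, and the groups overlapped only through Pak4_KO replicate 3 and WT replicate 1. The log2 fold change was -0.37 (SE 0.18, 95% interval -0.79 to 0.04, adjusted p = 0.664).

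Timd4 encodes TIM-4, a receptor for phosphatidylserine on dying cells that marks long-lived Kupffer cells and is lacking on monocyte-derived cells that have newly entered the liver. Timd4 (NCBI gene 276891, chromosome 11, 46810786 to 46844333) stood at 8.33, 7.45 and 4.57 CPM in WT and at 5.66, 6.07 and 7.48 CPM in Pak4_KO, from 230 to 374 reads per library. WT replicate 3 was the lowest of all 6 libraries and the groups overlapped fully. The log2 fold change was -0.08 (SE 0.25, adjusted p = 0.977), with an interval from -0.65 to 0.49, and its sign turned without WT replicate 1 (0.08) or Pak4_KO replicate 1 and on TPM.

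Cd5l encodes AIM, a protein that macrophages secrete into the blood. Cd5l (NCBI gene 11801, chromosome 3, 87357881 to 87371074) stood at 124, 141 and 100.5 CPM in WT and at 92.6, 84.6 and 101.9 CPM in Pak4_KO. WT replicates 1 and 2 were above all others, and WT replicate 3 lay just under Pak4_KO replicate 3. The log2 fold change was -0.39 (SE 0.16, unadjusted p = 0.0351, edgeR adjusted p = 0.556).

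Marco encodes a scavenger receptor with a collagen-like stalk that binds bacteria. Marco (NCBI gene 17167, chromosome 1, 120474538 to 120505024) stood at 99.3, 44.4 and 45.9 CPM in WT and at 55.5, 47.6 and 53.5 CPM in Pak4_KO. WT replicate 1 held more Marco than the other 2 WT libraries together, and each Pak4_KO library lay above both of those. The log2 fold change of -0.28 (SE 0.29, adjusted p = 0.894) rested on that library and was 0.20 without it.

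Adgre1 and Csf1r moved together from library to library. Adgre1 encodes F4/80, the classical surface antigen of mouse macrophages, and Csf1r the receptor for CSF1 and IL-34 on which macrophage survival depends. Adgre1 (NCBI gene 13733, chromosome 17, 57358581 to 57483529) stood at 24.6, 23.4 and 21.0 CPM in WT and at 18.5, 13.5 and 25.5 CPM in Pak4_KO. Csf1r (NCBI gene 12978, chromosome 18, 61105572 to 61131139) stood at 51.0, 53.2 and 43.9 CPM in WT and at 43.6, 31.9 and 54.4 CPM in Pak4_KO. For both, the 3 Pak4_KO libraries spread from the lowest to the highest value of the whole series. The log2 CPM of Adgre1 minus that of Csf1r was -1.10 ± 0.0735 in WT and -1.19 ± 0.0826 in Pak4_KO (SD, n = 3 each), with overlapping groups. The log2 fold changes were -0.26 for Adgre1 (SE 0.22, adjusted p = 0.845) and -0.19 for Csf1r (SE 0.20, adjusted p = 0.890). With 1 library left out, they lay between -0.53 and -0.063 for Adgre1 and between -0.39 and -0.0084 for Csf1r.

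The ligands of the CSF1 receptor did not pass the test. Csf1 stood at 14.3, 15.2 and 5.88 CPM in WT and at 11.9, 8.42 and 6.70 CPM in Pak4_KO (log2 fold change -0.38, SE 0.36, adjusted p = 0.872). WT replicates 1 and 2 lay above the other 4 libraries. Il34 averaged 1.74 ± 0.429 CPM over the WT libraries and 1.82 ± 0.227 CPM over those of Pak4_KO (SD, n = 3 each, adjusted p = 0.990).

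Cd68 encodes macrosialin, a glycoprotein of endosomes and lysosomes that is abundant in macrophages and present in other phagocytes. Cd68 (NCBI gene 12514, chromosome 11, 69664213 to 69666170) stood at 11.6, 13.8 and 7.18 CPM in WT and at 7.15, 6.41 and 7.02 CPM in Pak4_KO, from 303 to 654 reads per library. WT replicates 1 and 2 stood well above the rest, and WT replicate 3 was level with Pak4_KO replicate 1, so that the groups missed each other by 7.18 against 7.15 CPM. With upper quartile factors these values were 7.15 and 7.21 and the groups overlapped, as they did with library size alone and on TPM. The log2 fold change was -0.66 (SE 0.24, unadjusted p = 0.0238, edgeR adjusted p = 0.492), or 1.58-fold lower with a 95% interval that runs from 56.7% to 7.48% lower.

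Mpeg1 was the marker furthest from 0. It encodes perforin-2, a pore-forming protein that macrophages and other phagocytes use against bacteria they have taken up. Mpeg1 (NCBI gene 17476, chromosome 19, 12460770 to 12465285) stood at 120, 144 and 94.5 CPM in WT and at 75.8, 61.8 and 69.0 CPM in Pak4_KO, from 2918 to 6832 reads per library. The lowest WT library, replicate 3, was above the highest Pak4_KO library, replicate 1, also with each other scaling and on TPM. The means were 119 ± 24.6 and 68.9 ± 7.04 CPM (SD, n = 3 each), a log2 fold change of -0.79 (SE 0.17, 95% interval -1.19 to -0.40), or 1.73-fold lower. The unadjusted p was 0.00153 and the edgeR adjusted p 0.143. With 1 library left out, the log2 fold change lay between -0.94 and -0.64 and the edgeR adjusted p between 0.0705, without WT replicate 3, and 0.452, without Pak4_KO replicate 2.

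C1qa varied least of the markers within WT, with a coefficient of variation of 2.79%, but not within Pak4_KO, where its 11.4% exceeded that of Cd68 (5.73%), Marco (7.87%), Cd5l (9.32%) and Mpeg1 (10.2%). It encodes the A chain of C1q, the protein that starts the classical complement pathway and that macrophages make from A, B and C chains in equal number. C1qa (NCBI gene 12259, chromosome 4, 136895916 to 136898844) stood at 48.4, 49.3 and 46.7 CPM in WT and at 52.2, 42.2 and 44.5 CPM in Pak4_KO. The Pak4_KO values lay on both sides of the narrow WT range, with a log2 fold change of -0.06 (SE 0.13, 95% interval -0.35 to 0.23, adjusted p = 0.962). Its neighbours on chromosome 4, C1qb (136880126 to 136886200) and C1qc (136889801 to 136892936), had log2 fold changes of -0.21 (SE 0.15, adjusted p = 0.806) and -0.21 (SE 0.15, adjusted p = 0.805). In WT the 3 chains stood at 73.2 ± 3.39, 53.8 ± 6.02 and 56.9 ± 6.13 TPM (SD, n = 3). The log2 CPM of C1qb minus that of C1qc was -0.03 ± 0.0258 in WT and -0.03 ± 0.0731 in Pak4_KO, with overlapping groups. That of C1qa minus C1qb was 0.46, 0.27 and 0.52 in WT and 0.54, 0.54 and 0.61 in Pak4_KO, without overlap, a pair chosen after its values were seen and given no test.

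**Figure D2:**
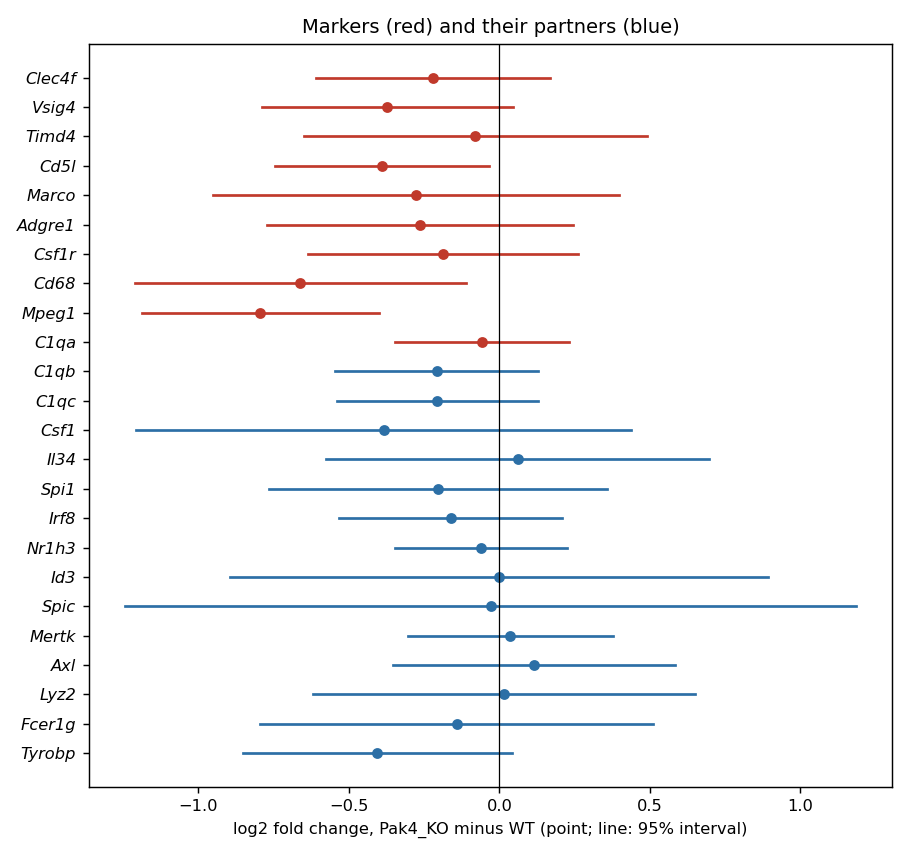
Log2 fold change of Pak4_KO minus WT from edgeR with its 95% interval, for the 10 markers (red) and 14 partner genes (blue). The intervals of Mpeg1, Cd68 and Cd5l lie below 0 before adjustment, and those of the other 7 markers and all 14 partners cross 0.

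Differences between pairs of markers separated the groups for some pairs and not for others. Within a library, the log2 CPM of Mpeg1 minus that of Clec4f was 0.63, 0.61 and 0.19 in WT and -0.11, 0.13 and -0.22 in Pak4_KO. Each WT difference was above each Pak4_KO difference. These differences are compared between libraries only, since CPM do not account for gene length. The same difference for Mpeg1 and Csf1r was 1.23, 1.44 and 1.11 in WT and 0.80, 0.95 and 0.34 in Pak4_KO, again without overlap. The groups overlapped for Cd68 minus Clec4f (-3.02 ± 0.447 in WT and -3.39 ± 0.222 in Pak4_KO), Mpeg1 minus Cd68 (3.49 ± 0.199 and 3.32 ± 0.0736) and Clec4f minus Csf1r (0.78 ± 0.164 and 0.77 ± 0.179; SD, n = 3 each). These pairs were chosen after their values were seen and were given no test.

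The promoters of Mpeg1 and Cd68 are shown, whose groups did not overlap in TMM-scaled CPM, though those of Cd68 did with some other scalings. Beside them stand the promoters of Vsig4 and Clec4f, markers more restricted to Kupffer cells whose groups overlapped. Each is the 250 bases before the annotated start on the gene's own strand, 5′ to 3′, from RefSeq (GRCm38.p6), which held 7 of the 10 markers. Capitals mark the letters GAGGAA, the core of sites bound by PU.1, the myeloid transcription factor that Spi1 encodes.
Mpeg1, chr19:12460520-12460769, plus strand: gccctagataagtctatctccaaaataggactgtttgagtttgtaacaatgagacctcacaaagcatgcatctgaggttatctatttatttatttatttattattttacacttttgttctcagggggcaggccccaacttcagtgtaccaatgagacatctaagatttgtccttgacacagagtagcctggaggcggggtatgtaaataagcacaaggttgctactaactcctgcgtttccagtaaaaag
Cd68, chr11:69666171-69666420, minus strand: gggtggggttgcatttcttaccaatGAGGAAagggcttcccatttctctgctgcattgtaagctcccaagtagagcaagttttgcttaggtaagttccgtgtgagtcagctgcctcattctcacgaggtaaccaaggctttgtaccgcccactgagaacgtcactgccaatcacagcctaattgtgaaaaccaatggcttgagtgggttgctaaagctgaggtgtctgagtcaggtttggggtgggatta
Vsig4, chrX:96293439-96293688, minus strand: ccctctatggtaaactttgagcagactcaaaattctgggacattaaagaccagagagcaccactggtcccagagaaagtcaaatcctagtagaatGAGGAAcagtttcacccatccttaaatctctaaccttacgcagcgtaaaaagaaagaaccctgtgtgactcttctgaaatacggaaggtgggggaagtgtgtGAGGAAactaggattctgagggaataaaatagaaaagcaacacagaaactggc
Clec4f, chr6:83656117-83656366, minus strand: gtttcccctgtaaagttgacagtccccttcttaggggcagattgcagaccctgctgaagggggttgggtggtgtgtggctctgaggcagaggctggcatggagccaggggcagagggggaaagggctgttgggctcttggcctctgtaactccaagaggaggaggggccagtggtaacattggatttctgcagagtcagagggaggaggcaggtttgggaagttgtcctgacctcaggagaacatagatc

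Searched on both strands, GAGGAA was present in 4 of the 7 marker promoters (Cd68, Vsig4, Cd5l and Marco) and in 23.3% of all 32851 promoter windows of this length. Vsig4 held 2 matches, at 155 to 150 and 53 to 48 bases before the start, and Cd68 held 1, at 225 to 220. Mpeg1, the marker furthest from 0, held none in this window, and neither did Clec4f or Timd4. The palindromic E-box CACGTG, which no GAGGAA match contains, was present in 0 of 7 marker promoters and in 6.02% of all windows. A match describes letters and is no evidence of binding.

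By library, the markers were highest in WT replicates 1 and 2 and lowest in Pak4_KO replicate 2. Of the 10 markers, 8 had their lowest CPM in Pak4_KO replicate 2, and 7 had their highest in WT replicate 1 or 2. Summed over the 10, they made up 580.0, 594 and 465 CPM in WT and 448, 363 and 460.0 CPM in Pak4_KO, so that WT replicate 3 was level with Pak4_KO replicates 1 and 3. The 10 markers did not share 1 pattern. Adgre1 and Csf1r had the closest profiles (Pearson r of log2 CPM 0.98 over the 6 libraries), followed by Cd5l with Cd68 (0.96), Cd5l with Mpeg1 and Cd68 with Mpeg1 (both 0.94) and Clec4f with Vsig4 (0.91). Marco had its own, at -0.19 with Vsig4 and -0.04 with Clec4f. These values share depth and library, and describe 6 points.

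**Figure D3:**
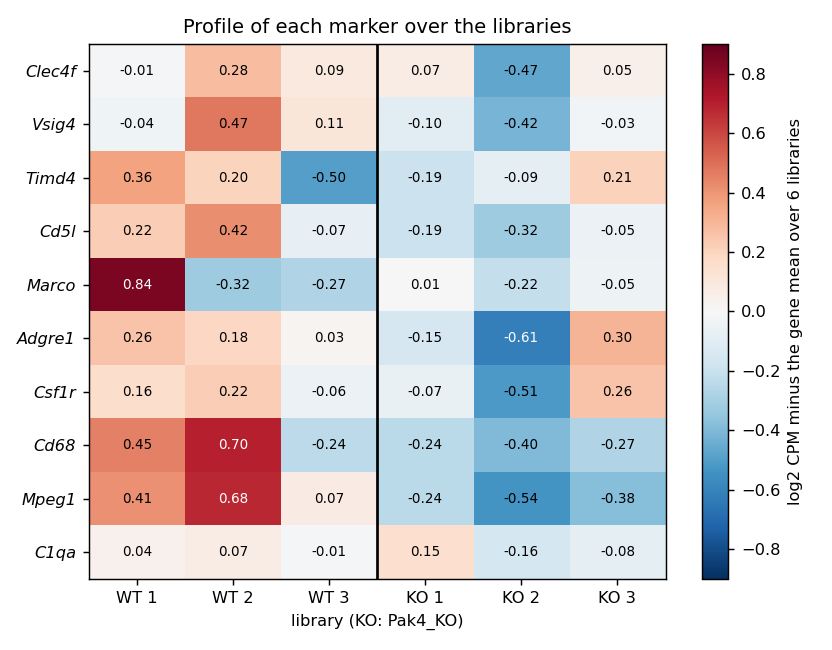
Log2 CPM of each marker in each library minus the gene's mean over the 6 libraries, WT at the left of the line and Pak4_KO at the right. Mpeg1 and Cd68 run from high in WT replicates 1 and 2 to low in Pak4_KO, Marco is high in WT replicate 1 alone (0.84), and 8 markers are lowest in Pak4_KO replicate 2.

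Genes outside the lists that followed the markers most closely were named by the highest Pearson correlation over the 6 libraries with the markers' mean standardised log2 CPM, among 11327 genes. They were Bad (r = 0.995), Plekhg3 (0.977), Pisd-ps2 (0.977), Vsir (0.976) and Ing2 (0.975). Bad, the closest, stood at 6.54, 6.59 and 5.39 CPM in WT and at 5.54, 4.57 and 5.54 CPM in Pak4_KO (edgeR adjusted p = 0.820). Vsir encodes VISTA, an immune checkpoint protein of myeloid cells, and stood at 9.19, 9.24 and 6.30 CPM in WT and at 6.87, 5.14 and 7.84 CPM in Pak4_KO (adjusted p = 0.809). With 6 points and so many genes, correlations of this size are described only.

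The further genes of Kupffer cells and macrophages passed the test in neither direction. Of 20 genes enriched in Kupffer cells, 14 were negative and 6 positive, with a median log2 fold change of -0.06 and 0 called. C6, a terminal complement component, stood at 280.3, 258 and 226 CPM in WT and at 224, 152 and 171 CPM in Pak4_KO (log2 fold change -0.48, SE 0.17, adjusted p = 0.480). Hmox1, the heme oxygenase with which Kupffer cells break down red cell heme and which other liver cells also make, stood at 870.5, 789 and 341 CPM in WT and at 301, 546 and 156 CPM in Pak4_KO (adjusted p = 0.648). C6 did not overlap between the groups, and Hmox1 did. Of the 20 genes, 2 were lower and 1 was higher without overlap, beside 6.06% and 7.35% of all tested genes. Of 31 genes of macrophages at large, 23 were negative and 8 positive, with a median of -0.14 and 0 called. Among them Tyrobp, the adaptor DAP12 of myeloid receptors, differed by -0.41 on the log2 scale (SE 0.20, adjusted p = 0.655) and Ctsb, the lysosomal protease cathepsin B, -0.26 (SE 0.13, adjusted p = 0.672).

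Of 5 transcription factors that shape macrophages, none was called. Spi1, which encodes PU.1, averaged 4.51 ± 0.944 CPM over the WT libraries and 3.91 ± 0.778 CPM over those of Pak4_KO (log2 fold change -0.20, SE 0.25). Irf8, a factor of monocytes and macrophages, differed by -0.16 on the log2 scale (SE 0.16). Of the factors tied to Kupffer cell identity, Nr1h3, which encodes the liver X receptor α and is also made by hepatocytes, stood at 59.3 ± 6.44 and 56.9 ± 2.36 CPM (log2 fold change -0.06, SE 0.12). Id3 (-0.0025, SE 0.39) and Spic (-0.03, SE 0.53) were centred on 0 with wide errors, Spic running from 3.20 to 16.4 CPM within WT. The signs of Nr1h3, Id3 and Spic turned on TPM. The adjusted p of these 5 genes lay at 0.885 or above by edgeR.

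Other macrophage genes named as partners of the markers did not pass the test. Of the receptors that bind dying cells, the log2 fold change of Mertk was 0.04 (SE 0.15, adjusted p = 0.987) and that of Axl 0.12 (SE 0.20, adjusted p = 0.950). Lyz2, the lysozyme of myeloid cells, had 0.02 (SE 0.28, adjusted p = 0.999), and Fcer1g, the common chain of Fc receptors, -0.14 (SE 0.28, adjusted p = 0.955). The sign of each of these 4 genes turned when certain single libraries were left out, and with no other scaling.

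Genes of the signals around Kupffer cells gave no call either. The list of CSF1 receptor ligands, signalling partners and related cytokine receptors had 5 of 10 genes negative (median -0.12), with Csf3r, the G-CSF receptor of neutrophils, at -0.93 (SE 0.35, adjusted p = 0.504, and 0.0456 without WT replicate 3) and the adaptor Grb2 at -0.32 (SE 0.14, adjusted p = 0.583). The niche list of Notch, TGF-β, BMP, LXR and adhesion genes had 8 of 16 negative (median -0.01), with the LXR target Mylip at 0.41 (SE 0.25) and Bmp10 at -0.37 (SE 0.27). The list for uptake of dying cells had 3 of 11 tested genes negative (median 0.07), and its bridging protein Gas6 stood at 34.1, 40.8 and 35.3 CPM in WT and at 45.1, 56.3 and 77.0 CPM in Pak4_KO (log2 fold change 0.69, SE 0.20, adjusted p = 0.303). Each Pak4_KO library held more Gas6 than each WT library, as was so for 7.35% of all tested genes. The immune receptor Cd300lf of the same list differed by -0.63 on the log2 scale (SE 0.29, adjusted p = 0.642). Complement receptors had 5 of 9 negative (median -0.06), with C3ar1 at -0.36 (SE 0.27, adjusted p = 0.813).

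Most monocyte and neutrophil markers had negative log2 fold changes, as Mpeg1 and Cd68 did, and none was called by edgeR. Of 14 monocyte genes, 13 were tested and 12 were negative (median -0.65, and -0.29 without WT replicate 1, 0 called), and Cx3cr1 was too low to test. Their summed level was 127, 111 and 47.2 CPM in WT and 56.1, 58.2 and 57.7 CPM in Pak4_KO. WT replicates 1 and 2 were thus well above the other 4 libraries, as for Cd68, while WT replicate 3 was the lowest of the 6. The monocyte and macrophage lectin Chil3 stood at 9.67, 12.5 and 2.66 CPM in WT and at 0.71, 1.21 and 1.60 CPM in Pak4_KO (log2 fold change -2.81, SE 0.56, adjusted p = 0.108), and Nr4a1, a factor of patrolling monocytes, differed by -0.99 on the log2 scale (SE 0.29, adjusted p = 0.332). Chil3 had an edgeR adjusted p of 0.00916 without WT replicate 3 and a DESeq2 adjusted p of 3.92e-06. Of 14 neutrophil genes, 9 were tested and all 9 were negative (median -0.79, 0 called), among them the chemokine receptor Cxcr2 (-1.30, SE 0.28, adjusted p = 0.137) and the calcium-binding protein gene S100a9 (-0.86, SE 0.22, adjusted p = 0.243), both called by DESeq2 (adjusted p = 0.0038 and 0.0208). The neutrophil sum was 76.8, 61.3 and 40.4 CPM in WT and 35.6, 35.2 and 26.1 CPM in Pak4_KO, without overlap. Of the 9 tested neutrophil genes, 4 were lower and 0 higher without overlap, beside 6.06% and 7.35% of all tested genes. The granule genes Ngp, Camp, Ltf, Elane and Mpo were too low to test, and Elane and Mpo had reads in WT replicate 2 alone (16 and 24). The part of monocytes and neutrophils in the Mpeg1 and Cd68 values was not tested.

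**Figure D4:**
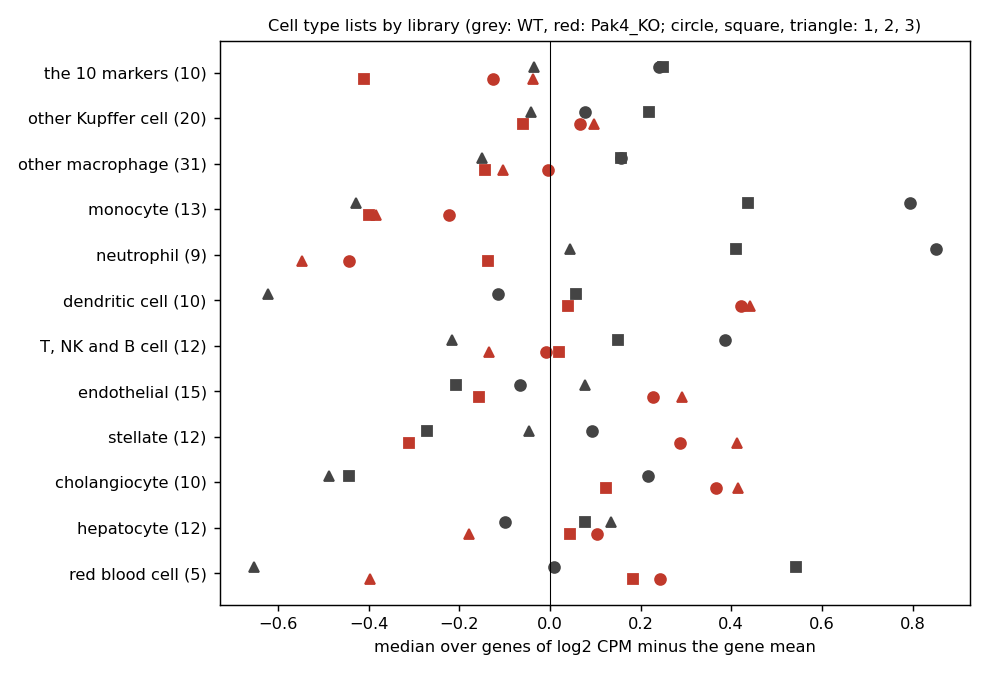
Median over each list's tested genes (number in brackets) of log2 CPM minus the gene's mean over the 6 libraries, 1 point per library. For the 10 markers WT replicate 3 is level with Pak4_KO replicate 3, the monocyte and neutrophil lists are highest in WT replicates 1 and 2, and the further Kupffer cell and macrophage lists overlap.

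The other cell types gave no call by edgeR. Lipid-associated macrophage genes had 4 of 10 negative (median 0.33), with the lipid handling genes Fabp5 at 0.57 (SE 0.18, adjusted p = 0.397) and Lpl at 0.35 (SE 0.17, adjusted p = 0.646), and their defining receptor Trem2 lay between 0.17 and 0.59 CPM. The sum of this list was 143, 125 and 131 CPM in WT and 182, 180.2 and 186 CPM in Pak4_KO, higher without overlap and so opposite in direction to the markers' summed means. Of its 10 genes, 2 were higher and 0 lower without overlap, beside 7.35% and 6.06% of all tested genes. Fabp5, at 53.0 ± 4.89 and 78.6 ± 18.2 CPM (SD, n = 3 each), was its most abundant gene. Dendritic cell genes had 2 of 10 tested genes negative (median 0.50), with Ly6d at 1.37 (SE 0.54) and Clec9a at 0.53 (SE 0.22). T, NK and B cell genes had 8 of 12 negative (median -0.29), while the immunoglobulin genes Igkc (1.46, SE 0.24) and Jchain (1.58, SE 0.26) were positive with an edgeR adjusted p of 0.0505 each and a DESeq2 adjusted p of 4.77e-05 and 2.4e-05. Endothelial genes had 2 of 15 negative (median 0.17), and the smallest p-values belonged to the clotting factor gene Vwf (1.04, SE 0.30) and the adhesion protein gene Cd34 (0.89, SE 0.33). Stellate cell genes had 4 of 12 negative (median 0.11), with Lrat at 0.86 (SE 0.19) and Col3a1 at 0.84 (SE 0.27), and cholangiocyte genes 1 of 10 (median 0.67), where the smallest p-values were those of the cilium gene Pkhd1 (0.59, SE 0.15) and the epithelial adhesion gene Epcam (0.97, SE 0.29). Hepatocyte genes had 7 of 12 negative (median -0.08), with Cyp3a11 at 1.16 and Serpina1c at -0.39, and red blood cell genes 3 of 5 tested (median -0.05), with Alas2 at -0.24 (SE 0.21) and Hbb-bs at -0.12 (SE 0.30). DESeq2 called 334 of 16197 tested genes in either direction (2.06%) and 9 of the 196 tested list genes other than the markers, which were Chil3, Cxcr2, S100a9, Igkc, Jchain, Vwf, Lrat, Pkhd1 and Cyp3a11.

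**Figure D5:**
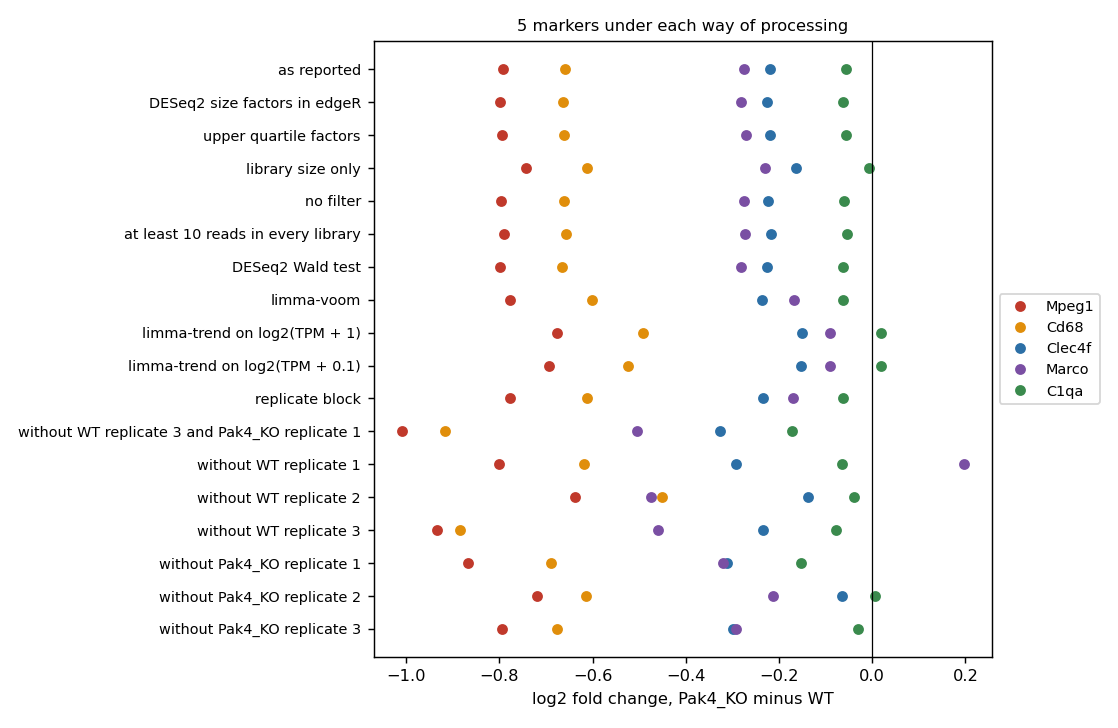
Log2 fold change of Pak4_KO minus WT for 5 markers as reported and under each alternative. Mpeg1 stays between -1.01 and -0.64 and Cd68 between -0.92 and -0.45, while Marco turns to 0.20 without WT replicate 1 and C1qa lies around 0.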

How the data were processed

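Liver RNA was extracted with Trizol and made into libraries with a stranded TruSeq mRNA kit, per the labels' protocols. Among the tools in the submitters' processing notes are HISAT2 (2.1.0), Bowtie2 (2.3.4.1) and StringTie (2.1.3b), with the build mm10. For the annotation release, the strand setting and reads with several matches, the choice is not given in the sources used here. Per the file headers, the authors deposited whole-number read counts, FPKM and TPM per gene and library; FPKM were not used. In all 6 libraries more genes held 2 reads than 1, so a read pair may count as 2. Of 45777 genes, 45679 matched RefSeq identifiers (GRCm38.p6).

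The counts of all 6 libraries entered 1 edgeR model (edgeR 4.0.16, R 4.3.3) with filterByExpr by group (16197 genes), TMM factors and the two-sided quasi-likelihood F-test, adjusted by Benjamini-Hochberg. An adjusted p under 0.05 is a call, and adjusted p-values come from this model unless another tool is named. The SE is the size of the log2 fold change over the square root of F. The 95% intervals are not adjusted. The procedure was tested on simulated data. Profiles use log2 CPM with a prior count of 2. No 2 libraries of a group agreed within counting error (chi-square per gene 66.1 to 133). The members and gene lists were chosen with earlier results of these data known. Lists are described by counts and medians without a test. Named genes are Pak4, the 10 markers, 14 partner genes (another is not reported here), from each other list the called genes (at most 4) or else the 2 with the smallest p, and the 5 genes most like the markers (at least 1 CPM, no predicted name). Alternatives were other scalings and filters, DESeq2 1.42.0, limma 3.58.1 (voom, and log2 of TPM plus 1 or 0.1), a replicate block, and libraries left out.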

Additional observations from a re-analysis of the deposited data

How the results depend on the processing

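The least deeply read marker was Timd4, with 230 to 374 reads per library. The 76 called genes became 44 when at least 10 reads were required in every library, 334 with DESeq2, and 37 to 81 with libraries left out. The markers' 0 calls became 1 with DESeq2 (Mpeg1) and stayed 0 under the other 16 alternatives. The 0 calls in the other lists became 9 with DESeq2, 1 with TPM plus 1 and 1 with TPM plus 0.1 (Igkc both times), and 0 to 4 with libraries left out. The markers' median log2 fold change lay between -0.42, without Pak4_KO replicate 3, and -0.14, without Pak4_KO replicate 2. With 1 library left out, the median ranged from -0.91 to -0.29 for monocytes, -0.96 to -0.59 for neutrophils, -0.47 to -0.14 for T, NK and B cells and 0.41 to 0.86 for cholangiocytes. It turned sign for complement receptors (-0.29 to 0.11), red blood cells (-0.31 to 0.36), the niche (-0.066 to 0.037) and uptake of dying cells (-0.029 to 0.22). The niche median was 0.047 with library size alone, and on TPM plus 1 the medians were 0.045 for the niche, -0.03 for T, NK and B cells, 0.31 for cholangiocytes, 0.039 for complement receptors and 0.11 for red blood cells. Also on TPM plus 1, the further Kupffer cell median turned from -0.061 to 0.0053 and the hepatocyte median from -0.077 to 0.013. With at least 10 reads in every library that of T, NK and B cells was -0.063. Whether replicate numbers pair the libraries was not settled. Deviations of same-numbered libraries correlated at 0.07, -0.20 and 0.15, and not every library correlated best with its own number. Deviations from a group mean constrain each other, so these values cannot exclude a pairing. With the replicate block 73 genes and 0 markers were called, Mpeg1 had an adjusted p of 0.233, and Spic turned to 0.19. Other reversed signs, of genes not called, follow as log2 fold changes, and their cause was not tested. With library size alone Id3 was 0.059, and with voom Spic was 0.23. On TPM plus 1 and plus 0.1, Timd4 was 0.0114 and 0.0199, C1qa 0.0195 and 0.0197, Nr1h3 0.0286 and 0.0291, Id3 0.0217 and 0.0212, Spic 0.23 and 0.28, and Hbb-bs 0.0301 and 0.0305. With 1 library, or WT replicate 3 and Pak4_KO replicate 1, left out, Timd4 ranged from -0.30 to 0.085, Marco from -0.51 to 0.20, C1qa from -0.17 to 0.0066, Il34 from -0.13 to 0.21, Nr1h3 from -0.11 to 0.033, Id3 from -0.27 to 0.41, Spic from -0.77 to 0.75, Mertk from -0.086 to 0.14, Axl from -0.038 to 0.30, Lyz2 from -0.41 to 0.23, Fcer1g from -0.55 to 0.033 and Hbb-bs from -0.45 to 0.24.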
